A study of Arabidopsis thaliana with 8 samples.

Results

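The nuclear genes with the strongest array signal in whole Arabidopsis plants were examined, to see which functions they serve and how the accession Cal-0 compared with Col-4. They were chosen by signal, as probe sets that match a single nuclear gene and have a mean signal of at least 1500 over all 8 arrays, with control probe sets and ECS1 left out. There were 76 such genes among 13414 nuclear single-gene probe sets, and the array carried 22746 probe sets that are not controls. In all, 314 of those reached 1500, but 191 were not named here, 13 matched several genes, 33 were plastid genes and 1 was ECS1, so the 76 are a named subset of the strongest signals. The signal itself chose the genes, so their levels are a description. The rule averaged over both accessions, but 9 genes reached 1500 only through the mean of the accession in which they were higher. Signal depends on how well each probe set binds its transcript, so the order of genes by signal is not an order of transcript amounts.

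The groups were Cal-0, given as a calcicole, which is a plant adapted to calcareous ground, and Col-4, given as a non-calcicole, with 4 ATH1 arrays each. All plants were sampled whole at developmental stage 3.90, after 48 h of stratification at 4 °C and growth in sand at 23 °C with daily water. Calcium chloride at 1 mM and Long Ashton nutrients at 0.5 times strength were given to both accessions, so neither group is an untreated one and no calcium response was measured. The labels do not say whether replicates came from separate plants, so p-values here reflect no more than the spread among these arrays, possibly a technical one.

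Leaf cells carry photosynthesis in chloroplasts. Thylakoid membranes hold the antennae that catch light, the photosystems and cytochrome b6f complex that move electrons, and the ATP synthase, while the stroma around them fixes carbon in the Calvin cycle. Most of these proteins are encoded in the nucleus and imported, so their messenger RNAs are abundant in green tissue, as are those of the cytosolic ribosomes that translate them.

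The median signal of an array was 44.0 to 50.1, and having only 8 arrays limits the precision. Of 5 markers of leaf cells only RCA had a named probe set, averaging 5129.6 ± 683 in Cal-0, against 5199.6 ± 992 in Col-4 (SD over the 4 arrays of each). Of 10 root markers 3 had one: PYK10 averaged 788 in Cal-0, against 605 in Col-4, AT5G17820 156 and 96.0, and NAI2 40.7 and 82.6 (NAI2 log2 difference -0.80, limma adjusted p = 0.029). The only named pollen marker, AT5G45880, averaged 4.83 in Cal-0, against 27.1 in Col-4, too low to be tested, and flower, seed storage and senescence markers had no named probe set. The part of root tissue in the results was not tested. Col-4 replicate 4 stood apart: it gave the highest of the 8 values for 45 of the 76 genes (59.21%), against 14.33% of all tested probe sets and 24.35% of nuclear single-gene ones with a mean signal of 500 to 1500. After quantile normalization it was the highest for 11. Its ratio of 3′ to 5′ control signal, a sign of RNA quality, was 2.388 on the log2 scale, against 1.522 to 1.965 in Cal-0 and 0.927 to 1.66 in the other Col-4 arrays. Col-4 replicates 1 and 2 lay below every Cal-0 array in this ratio. A fit without Col-4 replicate 4 therefore cannot fully tell accession and ratio apart. Without Col-4 replicate 4 the log2 difference between accessions (Cal-0 minus Col-4) turned from negative to positive for 17 of the 76 genes. None of those was over 0.14 in size with all arrays. It became 0.17 for AT3G22240 and AT1G54410 and 0.14 for PSAE-1. It was 0.00 to 0.12 for RCA, AT5G20290, AT3G60245, AT3G54210, PRXR1, AT4G01150, CCL, SAMDC, AT3G09200, GAPC2, AT1G67430, AT2G34480, AT2G41090 and PSBW.

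Photosynthesis and translation supplied the largest groups by number of genes. Background knowledge gave a role to 65 of the 76 genes and none to 11. Thylakoid photosynthesis and cytosolic translation had 14 genes each, cell wall and secreted proteins 8, cytosolic and mitochondrial metabolism 6, other plastid metabolism and redox 6, cold and dehydration 5, and carbon fixation and photorespiration 4. Ions and calcium had 3 genes, defence and specialised metabolism 3, and plastid ribosomes 2. Counted together, the 4 plastid-related groups (thylakoid, carbon fixation and photorespiration, other plastid, plastid ribosome) held 26 genes, which is 34.21% of the 76 and 40.32% of their summed signal. That total took in the photorespiratory gene HPR. It left out COR15A and COR15B, which encode chloroplast proteins but were placed with cold and dehydration, so it is not an exact plastid share. Thylakoid genes alone held 24.22% of the summed signal of the 76, the 11 genes given no role 16.12% and translation genes 12.4%.

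The 76 genes held 5.925, 5.726, 6.059 and 6.497% of the summed signal in Cal-0, against 5.942, 6.127, 6.19 and 7.257% in Col-4. The groups overlapped, and the Col-4 maximum was replicate 4. Thylakoid genes held 1.317, 1.3, 1.373 and 1.707% of all signal in Cal-0, against 1.397, 1.516, 1.53 and 1.954% in Col-4. In both accessions replicate 4 was the highest array for this group. Translation genes held 0.754 ± 0.0454% in Cal-0, against 0.783 ± 0.0741% in Col-4, a difference smaller than the spread between replicates. Carbon fixation genes held 0.406 ± 0.0321% in Cal-0, against 0.458 ± 0.0271% in Col-4.

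**Figure D1:**
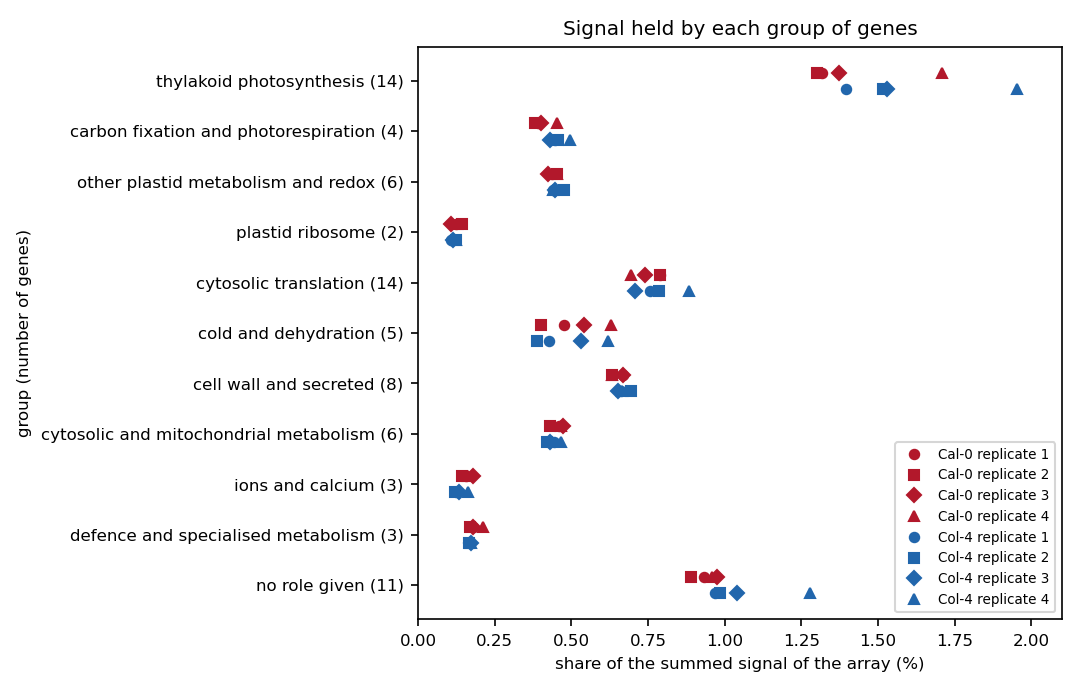
Share of the summed signal of each array (%, horizontal axis) held by each group of genes, with the number of genes in brackets; each point is 1 array, with a marker for each replicate. Thylakoid photosynthesis had the largest share on every array, from 1.3 to 1.954%, and the ranges of Cal-0 and Col-4 points overlap in every group.

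Few of these genes passed the test between accessions. In limma, on log2(signal + 16) over all 15165 tested probe sets, 4 of the 76 (5.26%) passed at an adjusted p under 0.05 (Benjamini-Hochberg). Cal-0 was higher for 1 of them and lower for 3. Over all tested probe sets 4.29% passed, 1.54% higher and 2.75% lower, and over nuclear single-gene ones 4.27%. It was 5.51% for nuclear single-gene probe sets with a signal of 500 to 1500 and 5.46% for the other probe sets of at least 1500, so the share of called genes was near the background. AT2G25510, AT3G49910 and AT2G25450 were lower in Cal-0, and AT5G39570 was higher. AT3G49910 and AT2G25450 reached the signal threshold only through Col-4, and with 1500 required in both accessions 2 of 67 genes (2.985%) were called. The count was also 2 in place of 4 without Cal-0 replicate 1, Col-4 replicate 1 or Col-4 replicate 2. In these bulk samples fewer cells of a type and less RNA per cell cannot be told apart. The array was designed on Columbia sequence, and whether Cal-0 transcripts bind its probes equally well was not tested.

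Most differences were small. The log2 difference was under 0.25 in size for 56 genes and under 0.5 for 69, and it reached 1 for 2. In limma 12 of the 76 had an unadjusted p under 0.05. The share of all tested probe sets at that level was not computed, so such counts by group are a description. The median standard error was 0.15, with a range of 0.12 to 0.33. Replicates varied by a median of 12.95% in Cal-0, against 15.53% in Col-4 (coefficient of variation), from 3.642% for AT3G11630 to 33.6% for AT4G34950 in Cal-0 and from 1.017% for AT5G64400 to 65.78% for MT1C in Col-4. The 4 Cal-0 values lay wholly on one side of the 4 Col-4 values for 11 of the 76 genes (14.5%), against 10.3% of all tested probe sets. Of those 11, AT4G16190, THIC, GSTU20 and AT5G39570 were the higher in Cal-0, and AT2G25510, PRK, AT1G78040, SBPASE, AT3G49910, BGLU44 and AT2G25450 the lower.

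The balance of positive and negative differences moved with Col-4 replicate 4. With all arrays 26 genes had a positive log2 difference (Cal-0 above Col-4) and 50 a negative one, with a median of -0.056, against 0.028 over all tested probe sets. Without Col-4 replicate 4 the counts were 43 and 33, after quantile normalization 40 and 36, and with array weights 37 and 39. The split widened with the 3′ to 5′ ratio as a covariate, to 22 and 54 (median -0.11), and without Col-4 replicate 1, to 21 and 55. Within arrays 1 to 4 of the series, which hold replicates 1 and 2 of each accession, they were 39 and 37, and within arrays 5 to 8 they were 25 and 51.

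**Figure D2:**
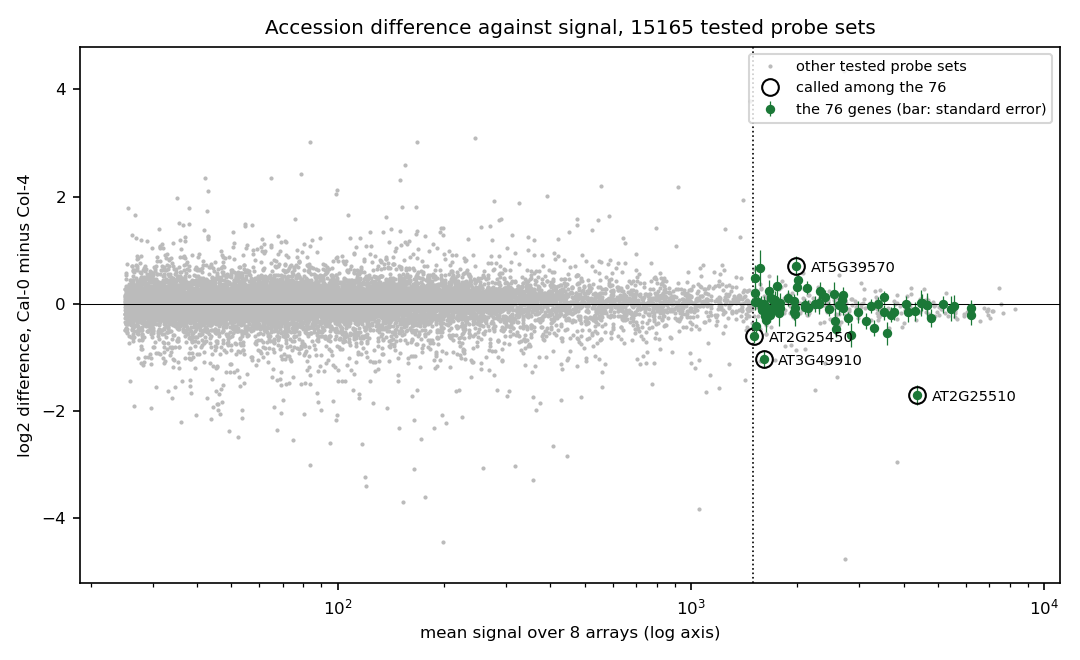
Log2 difference, Cal-0 minus Col-4, against mean signal over the 8 arrays (log axis) for the 15165 tested probe sets; green points are the 76 genes with their standard errors, and open circles mark the 4 that passed the test. Most of the 76 lie within 0.25 of 0, and AT2G25510 lies at -1.70.

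Thylakoid genes had no call among 14 in limma, and 2 reached an unadjusted p under 0.05. LHCB4.1 and LHCB4.2 encode minor antenna proteins of photosystem II. LHCB4.2 had signals of 2405, 2361, 2647 and 4374 in Cal-0, against 3836, 3761, 3892 and 5417 in Col-4. Cal-0 replicate 4 lay among the Col-4 values and the other Cal-0 arrays below them all. The log2 difference was -0.55 (standard error 0.21, limma adjusted p = 0.216). It passed with the replicate number as a block (limma adjusted p = 0.0239) and without Cal-0 replicate 4 (log2 difference -0.75, limma adjusted p = 0.0313). LHCB4.2 passed under no other alternative, and the limma adjusted p was 0.452 without Cal-0 replicate 1. LHCB4.1, in contrast, had 4771, 5176, 5938 and 7089.6 in Cal-0, against 5656, 5515, 6071 and 9487 in Col-4. Its groups overlapped, with a log2 difference of -0.20 (limma adjusted p = 0.733).

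Among photosystem genes, AT1G51400, which encodes a small photosystem II protein, was singled out after its values were seen. It had 2002, 2162, 1649 and 3370.0 in Cal-0, against 2827, 3034, 3075 and 4586 in Col-4. Again Cal-0 replicate 4 was the only Cal-0 array inside the Col-4 range. It gave a log2 difference of -0.58 (standard error 0.22, limma adjusted p = 0.226), and the adjusted p was 0.0228 with the replicate block. That block called 8.57% of all tested probe sets, against 4.29% without it. AT1G51400 passed under no other alternative, and with any 1 array left out the limma adjusted p was 0.0524 to 0.454. The other photosystem II genes were PSBW, PSBY (small subunits) and PSB27 (assembly and repair), with log2 differences of -0.14, -0.20 and -0.19. In photosystem I, the stromal subunit PSAE-1 differed by -0.05 and the lumenal subunit PSAN by -0.32 (limma adjusted p = 0.957 and 0.332).

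PSAN had 2708, 2638, 2459.8 and 3311 in Cal-0, against 3104, 3302, 3305 and 4242 in Col-4. The groups overlapped only because Cal-0 replicate 4 lay above Col-4 replicates 1 to 3. The remaining thylakoid genes were the cytochrome b6f gene AT2G26500 (log2 difference -0.16), ATPC1 for the gamma subunit of ATP synthase (-0.15), the curvature protein genes AT4G01150 (-0.03) and AT1G52220 (-0.08), the phosphoprotein gene AT3G47070 (-0.31) and PIFI (0.07), known for chlorophyll fluorescence after illumination. None of these passed the test. In total 13 of the 14 log2 differences were negative, with a median of -0.18, and 13 of the 14 genes were highest in Col-4 replicate 4. Without that array 10 were negative and the median was -0.04, and after quantile normalization 11 were negative and the median was -0.06. With the 3′ to 5′ ratio as a covariate all 14 were negative, with a median of -0.27. Within arrays 1 to 4 and within arrays 5 to 8, 12 of the 14 were negative. Why Col-4 replicate 4 was high was not tested.

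Carbon fixation genes had no call among 4 in limma, with 2 at an unadjusted p under 0.05. PRK encodes phosphoribulokinase, which regenerates the acceptor for carbon dioxide. It had 2485, 2519.9, 3113 and 2998 in Cal-0, against 3354, 3590.5, 3609.7 and 4697 in Col-4. All Cal-0 values were below all Col-4 values, with a log2 difference of -0.45 (standard error 0.15, limma adjusted p = 0.144). PRK passed with a block for arrays 1 to 4 and 5 to 8 (limma adjusted p = 0.0459) and with the 3′ to 5′ ratio as a covariate (0.0324). Those fits called 1095 and 868 of the 15165 tested probe sets, against 651 in the main fit. It passed under no other alternative, and with any 1 array left out the limma adjusted p was 0.154 to 0.344.

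SBPASE encodes sedoheptulose bisphosphatase, an enzyme of the same regeneration phase. It had 1901, 1822, 2292 and 2680.2 in Cal-0, against 2888, 3048, 2726 and 3270.3 in Col-4. The groups again did not overlap, and the log2 difference was -0.47 (standard error 0.15, limma adjusted p = 0.131). RCA, for Rubisco activase, differed by -0.01, and HPR, for the photorespiratory hydroxypyruvate reductase, by -0.04 (limma adjusted p = 0.99 and 0.944).

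Other plastid genes spanned pigment, redox and cofactor functions, with no call among 6 in limma and 1 unadjusted p under 0.05. That gene was THIC, which makes the pyrimidine part of thiamine. It had 2411, 2395, 2391 and 2211 in Cal-0, against 1752, 2007, 1994 and 1862 in Col-4. All Cal-0 values were the higher, by a log2 difference of 0.30 (standard error 0.12, limma adjusted p = 0.237). PORB, for the light-dependent step of chlorophyll synthesis, differed by -0.16, and AT1G74470, for geranylgeranyl reductase, by -0.32 with a standard error of 0.24. The peroxiredoxin gene AT3G11630 (-0.08), the thioredoxin gene ATHM2 (-0.03) and AT3G58610 of branched-chain amino acid synthesis (0.10) lay nearer to 0. The plastid ribosomal protein genes AT2G43030 and AT3G54210 differed by 0.12 and -0.01, with no call in limma and none at an unadjusted p under 0.05.

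**Figure D3:**
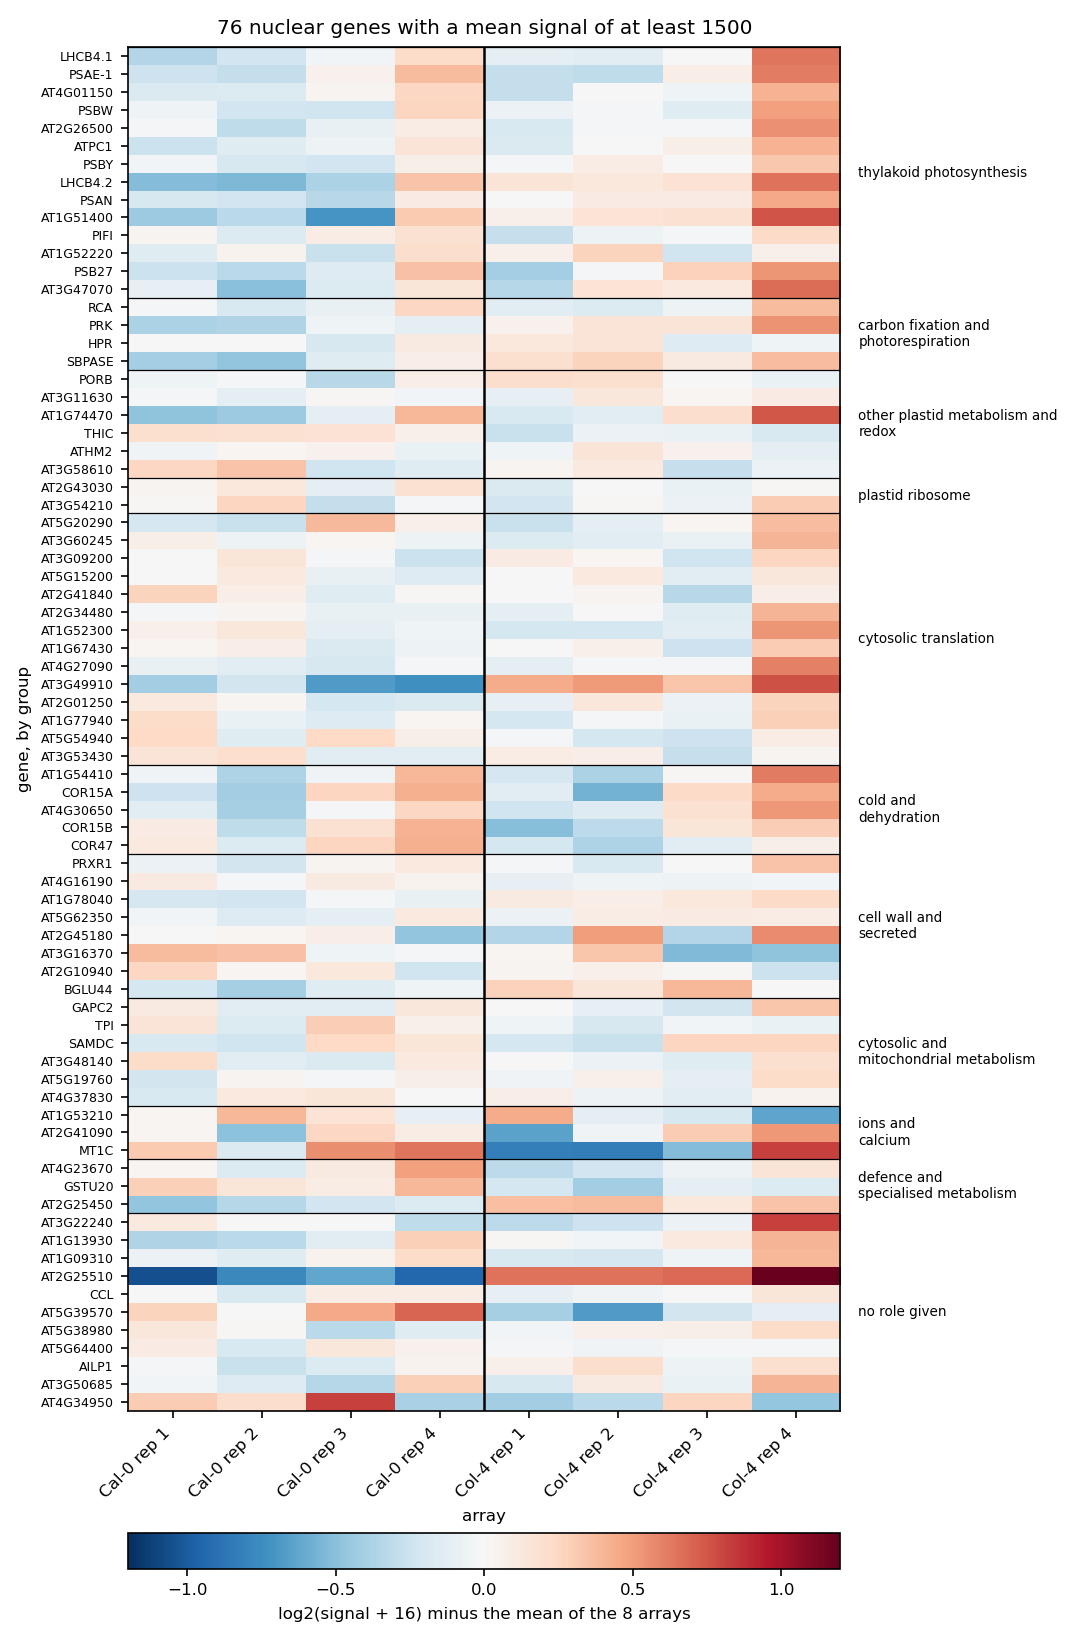
Deviation of each of the 76 genes (rows, by group) from its own mean over the 8 arrays, in log2(signal + 16) units, with Cal-0 arrays at the left of the black line and Col-4 arrays at the right. Col-4 replicate 4 is the highest array for 45 of the 76 genes, and AT2G25510 and AT3G49910 are low on all 4 Cal-0 arrays.

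Cytosolic translation had 1 call among 14 genes, against 4.29% of all tested probe sets. The gene was AT3G49910, which encodes a protein of the large ribosomal subunit and reached the signal threshold only through Col-4. It had 1115, 1280.2, 931 and 890.5 in Cal-0, against 2043, 2136, 1893 and 2560.5 in Col-4. Every Cal-0 value was well below every Col-4 value. It fell by 1.03 on the log2 scale (standard error 0.16, limma adjusted p = 0.00289). The log2 difference was between -1.13 and -0.94 with any 1 array left out. Within arrays 1 to 4 it was -0.80 (limma adjusted p = 0.0625) and within arrays 5 to 8 it was -1.26 (0.00826).

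No other translation gene reached an unadjusted p under 0.05. The other large-subunit genes AT3G60245, AT2G34480, AT1G52300, AT1G67430, AT4G27090, AT2G01250, AT1G77940 and AT3G53430 had log2 differences of -0.22 (AT4G27090) to 0.04 (AT3G53430). The small-subunit genes AT5G20290, AT5G15200 and AT2G41840 lay at -0.01, -0.06 and 0.11, and AT3G09200, an acidic stalk protein gene, at -0.07. AT5G54940, which encodes a SUI1-type initiation factor, was at 0.20 (limma adjusted p = 0.59). Over the 14 genes 5 log2 differences were positive and 9 negative, with a median of -0.03. Col-4 replicate 4 was the highest array for 10 of them, and without it 10 were positive and 4 negative, while with the 3′ to 5′ ratio as a covariate 3 were positive and 11 negative. AT3G60245 shows this in single values, with 2338, 2138, 2267 and 2131 in Cal-0 against 1979, 2020.2, 2105 and 2961 in Col-4.

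Cold and dehydration genes gave no call between accessions in limma, and none of the 5 had an unadjusted p under 0.05. COR15A and COR15B encode chloroplast proteins known to accumulate in the cold and are adjacent genes. COR15A had 3639, 3235, 5184 and 5835 in Cal-0, against 3958, 2919, 5073 and 5901 in Col-4. COR15B had 2660.3, 2006, 2814 and 3317 in Cal-0, against 1734, 1995, 2749.7 and 3051 in Col-4. For both genes either accession was higher on replicates 3 and 4 than on 1 and 2. The log2 differences between accessions were 0.01 for COR15A and 0.19 for COR15B. COR47 and AT1G54410, which encode dehydrins, differed by 0.32 and -0.03, and AT4G30650, for a small membrane protein of the RCI2 type, by -0.15.

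Arrays 5 to 8 were then set against arrays 1 to 4, by their numbers in the sample titles, with accession in the fit. Of the 76 genes 6 (7.89%) passed in limma, 5 higher and 1 lower in arrays 5 to 8, against 8.03% of all tested probe sets, 4.04% higher and 3.98% lower. COR15A (log2 difference 0.68), AT1G74470 (0.62), PSAE-1 (0.56), COR15B (0.52) and SAMDC (0.45) were higher in arrays 5 to 8, and AT3G16370 (-0.55) was lower. The 5 cold and dehydration genes had a median of 0.50 in that contrast and 0.01 between accessions. In the same contrast of arrays the median was 0.58 for the 3 genes of ions and calcium and 0.28 for the 14 thylakoid genes. It was 0.12 over the 76 and -0.047 over all tested probe sets. The 3′ to 5′ log2 ratio also differed, being 1.66 to 2.388 in arrays 5 to 8, against 0.927 to 1.701 in arrays 1 to 4, and its part in this contrast was not tested. What the array numbers stand for is not given in the labels.

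Primary metabolism outside the plastid had no call among 6 genes in limma, and no unadjusted p was under 0.05. The glycolytic genes GAPC2 and TPI had log2 differences of -0.00 and 0.17. SAMDC, for the S-adenosylmethionine decarboxylase of polyamine synthesis, was at -0.02. It had 2281, 2186, 3048 and 2859 in Cal-0, against 2228, 2151, 3103 and 3089 in Col-4, so that replicates 3 and 4 were the higher in both accessions. The mitochondrial carrier gene AT5G19760 (-0.07), the cytochrome c oxidase subunit gene AT4G37830 (0.03) and AT3G48140 of the B12D family (0.01) were within the spread between replicates.

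Cell wall and secreted proteins had no call among 8 genes in limma, with 2 at an unadjusted p under 0.05. BGLU44, for a beta-glucosidase, had 1291, 1138, 1353 and 1444 in Cal-0, against 1828, 1658, 1979.5 and 1497 in Col-4. The groups did not overlap, although Cal-0 replicate 4 and Col-4 replicate 4 were close. BGLU44 reached the signal threshold only through Col-4. Its log2 difference was -0.41 (standard error 0.14, limma adjusted p = 0.158). AT1G78040, of an extensin-related family first known from olive pollen, had 2404, 2364, 2728 and 2607 in Cal-0, against 2993, 2930.0, 3036 and 3262 in Col-4. Its groups lay apart by a log2 difference of -0.27 (limma adjusted p = 0.304). AT4G16190, a papain-type protease gene, also showed no overlap, with 3674 ± 146 in Cal-0, against 3372 ± 67.9 in Col-4 (SD, n = 4 each; log2 difference 0.12, limma adjusted p = 0.713). The peroxidase gene PRXR1 (-0.07), the inhibitor family gene AT5G62350 (-0.10), the lipid transfer-like genes AT2G45180 (-0.18) and AT2G10940 (0.08) and the esterase gene AT3G16370 (0.33) all overlapped between accessions.

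Ions and calcium had no call among 3 genes in limma and no unadjusted p under 0.05. MT1C, which reached the signal threshold only through Cal-0, encodes a metallothionein, a small cysteine-rich protein that binds metal ions. It had 1788, 1272, 2112 and 2253 in Cal-0, against 806, 798, 993 and 2549 in Col-4. Col-4 replicate 4 lay above all Cal-0 values and the other Col-4 arrays below them all. The log2 difference was 0.67 (standard error 0.33, limma adjusted p = 0.377), and without Col-4 replicate 4 it was 1.06 (limma adjusted p = 0.014). MT1C passed under no other alternative. Genes were not chosen again for the fit without that array, which held the highest MT1C value, so this pass is a description. With the 3′ to 5′ ratio as a covariate the log2 difference was 0.35 (limma adjusted p = 0.274), within arrays 1 to 4 it was 0.90 and within arrays 5 to 8 it was 0.45. AT1G53210, for a Na+/Ca2+ exchanger-like protein, had 1653, 2147, 1817 and 1517 in Cal-0, against 2217, 1508, 1415 and 1043 in Col-4, with a log2 difference of 0.24 (limma adjusted p = 0.676). AT2G41090, for a calmodulin-like protein, had 1609.5, 1122, 1888 and 1685 in Cal-0, against 1011, 1543, 1962 and 2278 in Col-4 (log2 difference -0.07). For AT1G53210 and AT2G41090 alike, the Col-4 range took in all Cal-0 values.

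Defence and specialised metabolism held 1 call among 3 genes, against 4.29% of all tested probe sets. AT2G25450, which reached the signal threshold only through Col-4, encodes a dioxygenase that hydroxylates a glucosinolate side chain. It had 1058, 1156, 1256 and 1312 in Cal-0, against 1892, 1926, 1611 and 1865 in Col-4. The groups were wholly apart. It fell by 0.60 on the log2 scale (standard error 0.13, limma adjusted p = 0.0234). Without Cal-0 replicate 1 or 2, or Col-4 replicate 1 or 2, the adjusted p was 0.0856, 0.0608, 0.063 and 0.0792. Within arrays 1 to 4 the log2 difference was -0.78 (limma adjusted p = 0.0385) and within arrays 5 to 8 it was -0.43 (0.304).

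GSTU20, a tau-class glutathione transferase gene, had 2418, 2192, 2105 and 2614 in Cal-0, against 1708, 1483, 1836 and 1771 in Col-4. Every Cal-0 value was above every Col-4 value. The log2 difference was 0.45 (standard error 0.13, limma adjusted p = 0.0914), and the adjusted p was 0.0485 with the block for arrays 1 to 4 and 5 to 8. GSTU20 passed under 4 of the 22 alternatives. With any 1 array left out the limma adjusted p was 0.113 to 0.249. Within arrays 1 to 4 it was 0.189 and within arrays 5 to 8 it was 0.429. AT4G23670, of the major latex protein family, differed by 0.23 (limma adjusted p = 0.607).

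Among the 11 genes given no role, 2 passed, against 4.29% of all tested probe sets. AT2G25510 had 1735, 2106, 2348 and 1882 in Cal-0, against 5702, 5700.4, 5814 and 9658 in Col-4. The lowest Col-4 value was above the highest Cal-0 value by a wide margin, and Col-4 replicate 4 was far above the other Col-4 arrays. It fell by 1.70 on the log2 scale (standard error 0.19, limma adjusted p = 0.00032), a mean 3.33 times as high in Col-4. Without Col-4 replicate 4 the log2 difference was -1.51 (limma adjusted p = 0.000241), within arrays 1 to 4 it was -1.57 and within arrays 5 to 8 it was -1.83.

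AT5G39570 had 2294, 1912, 2608 and 3092 in Cal-0, against 1443, 1180.3, 1628 and 1752 in Col-4. The groups did not overlap, and within each accession replicate 2 was the lowest and replicate 4 the highest. It rose by a log2 difference of 0.71 (standard error 0.18, limma adjusted p = 0.0482). That call was close to the threshold: the adjusted p was 0.00535 with the replicate block, but 0.105 within arrays 1 to 4 and 0.096 within arrays 5 to 8. With 1 array left out, it passed without Cal-0 replicate 2 (0.033) or Col-4 replicate 4 (0.0414) and lay between 0.0741 and 0.142 without any of the other 6.

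**Figure D4:**
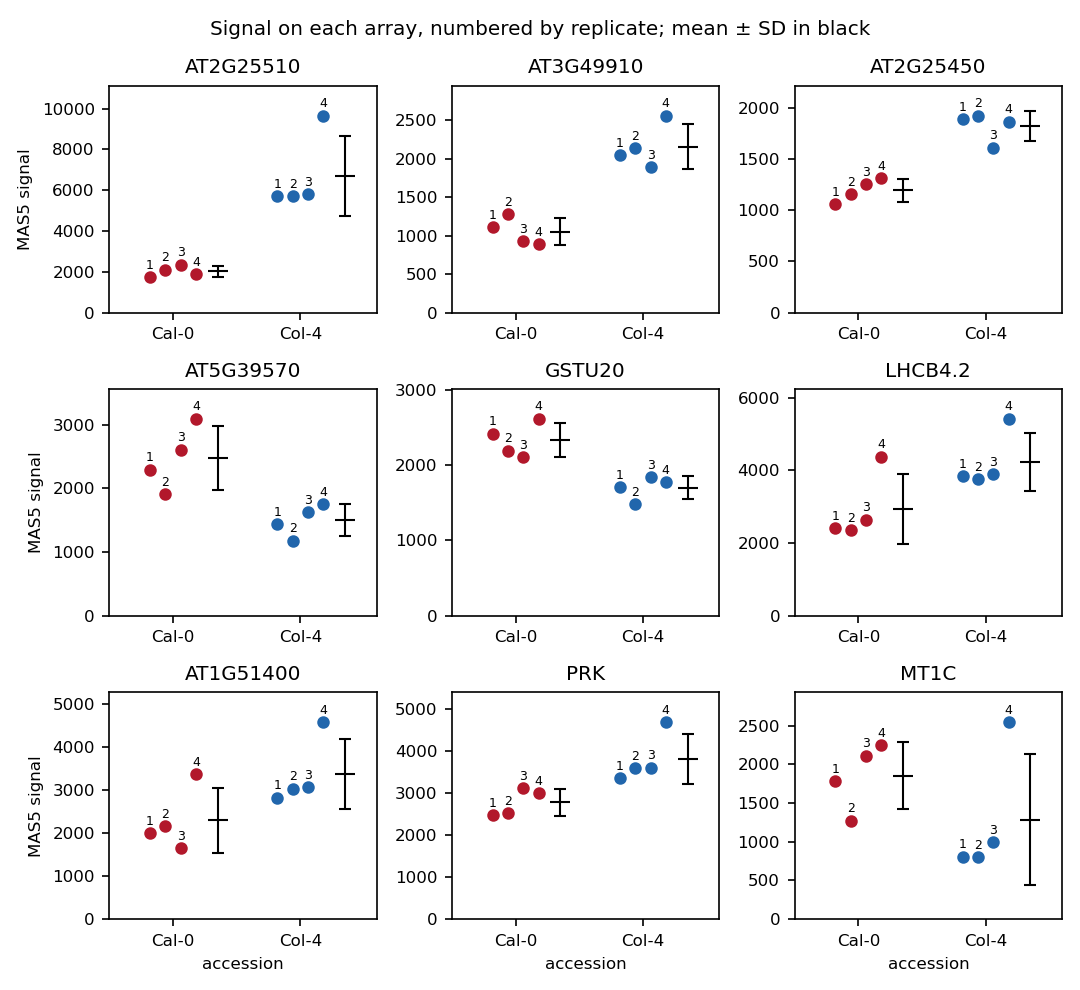
MAS5 signal on each array for 9 of the genes described, with Cal-0 at the left and Col-4 at the right of each panel, points numbered by replicate and mean ± SD (n = 4) in black. The accessions are apart for AT2G25510, AT3G49910, AT2G25450, AT5G39570, GSTU20 and PRK, and overlap for LHCB4.2, AT1G51400 and MT1C.

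The other 9 genes with no role given did not pass. AT3G22240 had 5736, 5266, 5275 and 4263 in Cal-0, against 4223, 4427, 5032 and 9319.8 in Col-4, with Col-4 replicate 4 far above the rest (log2 difference -0.09). AT4G34950, which reached the signal threshold only through Cal-0, had a log2 difference of 0.48 (standard error 0.24, limma adjusted p = 0.399). AT1G13930 had one of -0.26. AT1G09310, CCL, AT5G38980, AT5G64400, AILP1 and AT3G50685 had log2 differences of -0.21 (AILP1) to 0.05 (AT5G64400). AT5G64400 had 2099, 1725, 2147 and 2026 in Cal-0, against the closely spaced 1919, 1896, 1942 and 1927 in Col-4.

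AT2G25450 and AT2G25510, both lower in Cal-0, have 6 annotated genes between them. Of those 6, AT2G25460 and AT2G25500 had named probe sets, with signals of 7.42 and 2.33 in Cal-0 and 11.5 and 5.10 in Col-4, too low to be tested. On the outer sides AT2G25430 differed by -0.10, AT2G25520 by -0.44 (limma adjusted p = 0.0871) and AT2G25530 by -0.13. These neighbours were looked up after the calls were seen.

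With the replicate number as a block, 6 of the 76 genes (7.89%) passed, 1 higher and 5 lower in Cal-0, against 8.57% of all tested probe sets. LHCB4.2 and AT1G51400 were the 2 added.

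Around the threshold, AT3G53430, AT4G34950 and AT2G25450 had mean signals of 1518.4, 1514.6 and 1509.7, just inside it. AT5G19510, AT5G02870 and APA1, at 1489.2, 1475.9 and 1469.1, were just outside. Of the 76 genes 9 would fall below 1500 on the mean of 1 accession. In Cal-0 these were AT3G47070, AT4G27090, AT3G49910, BGLU44 and AT2G25450, and in Col-4 they were MT1C, AT5G54940, AT3G53430 and AT4G34950.

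Other genes of the same pathways were taken from 24 function lists with 366 genes, of which 65 had a named probe set and 62 were tested. They included 23 of the 76 genes. In limma none of the 62 was called higher in Cal-0, and 2 (3.23%) were called lower, near the 2.75% of all tested probe sets. At an unadjusted p under 0.05, 6 were higher and 7 lower, and the share of all tested probe sets at that level was not computed. Both genes called lower encode thionins, small antimicrobial peptides, in the defence list. THI2.2 averaged 7.58 ± 1.76 in Cal-0, against 58.6 ± 22.7 in Col-4. THI2.1 averaged 30.02 ± 8.53 in Cal-0, against 127 ± 73.6 in Col-4. THI2.1 had a log2 difference of -1.50 (limma adjusted p = 0.0214). THI2.2 reached the minimum mean signal of 25 only through Col-4, so no size is given for its difference. All 6 named genes of the photosystem and electron transport list were among the 76, as were 3 of 4 of the Rubisco and Calvin cycle list and 2 of 3 of the antenna list. The translation factor list had 5 named genes and none among the 76. Water channels, the methionine cycle, nitrogen and sulphur assimilation and glycine-rich RNA-binding proteins had no named probe set, so their level relative to the 76 was not analysed here.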

How the data were processed

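RNA of 8 whole-plant samples, 4 of Cal-0 and 4 of Col-4, was measured on ATH1 arrays. The deposited signals are linear intensity per probe set. Per the submitters' processing notes MAS5 made them, in a version not given in the sources used here. Trimmed by 2% at either end, every array averaged 100.01. Probe sets were named from the platform annotation, with symbols from RefSeq (TAIR10.1), and 8730 stayed unnamed here. Only names and gene order were taken from RefSeq.

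Signals were transformed as log2(signal + 16), which understates differences of low genes. The 15165 probe sets with a mean of at least 25 were fitted in limma 3.58.1 under R 4.3.3 (lmFit, eBayes, two-sided, no covariate, 6 residual degrees of freedom), with Benjamini-Hochberg adjustment over all of them and a threshold of 0.05. All 76 genes passed that filter.

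The genes and lists were chosen with earlier results of these data known. Roles and the groups made from them are background knowledge, assigned by hand after the names were seen. Separately, the function lists placed 23 genes and name patterns 4, but the groups did not use that placing. None of the cytosolic translation genes was placed by a list or pattern. After the files were read, 1 wrong identifier in the lists and 1 pattern were corrected. The rule for named genes took called genes, the 20 of highest signal, the 3 highest of each function and the 3 on either side of the threshold of 1500. Further names account for the remaining members and were chosen after their values were seen.

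Same-numbered arrays of the accessions deviated together (correlations 0.278, 0.376, 0.478 and 0.403), from the data and not the labels, and between replicates 1 and 2 unlike numbers correlated as well (0.273 and 0.382). The replicate block is therefore an alternative. The others were a pseudocount of 1 or 50, a minimum of 100 or no filter, median centring, quantile normalization, array weights, a trend on intensity with robust fitting, a block of arrays, the 3′ to 5′ ratio as a covariate, other thresholds and each array left out. Fits within arrays 1 to 4 and 5 to 8 were added after seeing the data. The fit was checked on simulated data with noise drawn separately for each probe set and array. It recovered 10.4% of log2 changes of 0.5, 66.3% of those of 1 and 96.7% of those of 2. A shift shared by many genes on 1 array, as on Col-4 replicate 4, was not simulated.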

Additional observations from a re-analysis of the deposited data

Results flagged for a closer look

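Within each accession, the 47 genes named by rule and the share of signal held by all 76 were screened for a single array far from the other 3. In all 96 groups of 4 arrays were checked and 5 stood out, and chance flags about 1 in 20. Col-4 replicate 4 was the array in 4 of them. AT2G25510 had 9658.2 on it, against 5700.4 to 5813.5 on the other Col-4 arrays. LHCB4.2 had 5416.7 there, against 3760.7 to 3891.8, and the ribosomal protein gene AT3G60245 had 2961.0, against 1979.4 to 2104.6. AT2G10940 went the other way, with 1431.2 against 1734.5 to 1794.8. The fifth was Col-4 replicate 3, where the ribosomal protein gene AT3G53430 had 1247.4, against 1546.7 to 1602.8.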

How the results depend on the processing

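AT2G25510 was called lower in Cal-0 under all 22 alternatives tried for single genes, and AT3G49910 under all but that within arrays 1 to 4. Of 47 named genes none that was called changed direction; 3 called genes lost the call 17 times in all, and 4 genes not called gained one 9 times in all. Of the 76 genes 4 were called, and 2 to 5 with 1 array left out, 2 within arrays 1 to 4 and 2 within arrays 5 to 8. With the replicate block 5 were called lower in place of 3. A single gene was called higher; there were 0 with a pseudocount of 1, no filter, median centring or within either set of arrays, 2 with a pseudocount of 50, quantile normalization, array weights or the block of arrays, and 0 to 2 with 1 array left out. With 1 array left out, 2 to 4 were called lower. Requiring a mean of 1500 in both accessions left 67 genes, with 2 called, 1 of them lower. A threshold of 1000 gave 151 genes, with 9 called, 2 higher and 7 lower, and held 8.966% of the summed signal in place of 6.215%. A threshold of 3000 gave 23 genes, with 1 called lower and 0 higher, and held 3.007%. The paired analysis changed no call of a gene named by rule other than that of LHCB4.2, and gained AT1G51400 besides. The median standard error of 0.15 limits what 4 arrays each can show: 69 of the 76 log2 differences were under 0.5 in size, and a p that misses the threshold does not show that the accessions were alike.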
